A study of Mus musculus with 84 samples.

Results

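Among airway-projecting sensory neurons of the mouse vagal ganglia, 26 neurons that carried the transcript of P2rx2, an ATP-gated ion channel, were compared across all genes with 6 neurons in which it was low. All neurons came from mice of strain C57BL/6 and had taken up the fluorescent lipophilic tracer DiI (2%) from the airways. Each neuron was picked singly, its mRNA was amplified, and each is 1 sample; the labels name no animal, sex, age, treatment or ganglion. Levels are given in CPM, the count of a gene divided by the total of its neuron and multiplied by 1000000. Neurons with at least 5000000 counts, at least 5000 genes at 10 CPM or more, and Prdm12, a transcription factor of jugular ganglion neurons, below 10 CPM were taken. This left 32 of 84 neurons, after 12 were left out for their total, 34 for their number of genes and 6 for Prdm12. Those with P2rx2 at 10 CPM or more are called P2rx2 neurons here, and the others P2rx2-low neurons. Because no animal is named, each class counts as 1 sample, so the differences have no replicate check and no test across genes was made. Each share carries a 95% interval by the exact Clopper-Pearson method, which covers counting error over neurons alone. The members were chosen by the measured levels of P2rx2 and Prdm12, the total and the number of genes, so none of these is a finding.

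ATP that leaks or is released from airway cells opens P2X channels on vagal nerve endings. P2X channels are trimers, and P2rx2 and P2rx3 subunits can form homomers or join in heteromers with slower desensitisation. In the vagus, P2rx2 is known as a subunit of nodose ganglion neurons, which arise from placodes, while jugular neurons, which arise from the neural crest, are known to rely on P2rx3. Within the nodose ganglion, airway neurons include fast stretch receptors that sense lung inflation and C-fibres that respond to chemical irritants.

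P2rx2 itself (chromosome 5, 110339812 to 110343212, minus strand, GRCm38) set the classes, so its levels are a description. In the P2rx2 neurons it ran from 10.7 CPM in neuron AM003 to 376.6 CPM in AM257, with a median of 88.4 and quartiles of 30.6 and 179.8 CPM. In the P2rx2-low neurons it stood at 0.0924 CPM in AM234, 0.134 in AM273, 0.643 in AM284, 2.19 in AM069, 5.03 in AM272 and 8.17 in AM007. The levels formed a graded series with no gap at 10 CPM: the neurons next to the threshold were AM007 and AM272 below it, and AM003 and AM017 (13.4 CPM) above it.

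**Figure D1:**
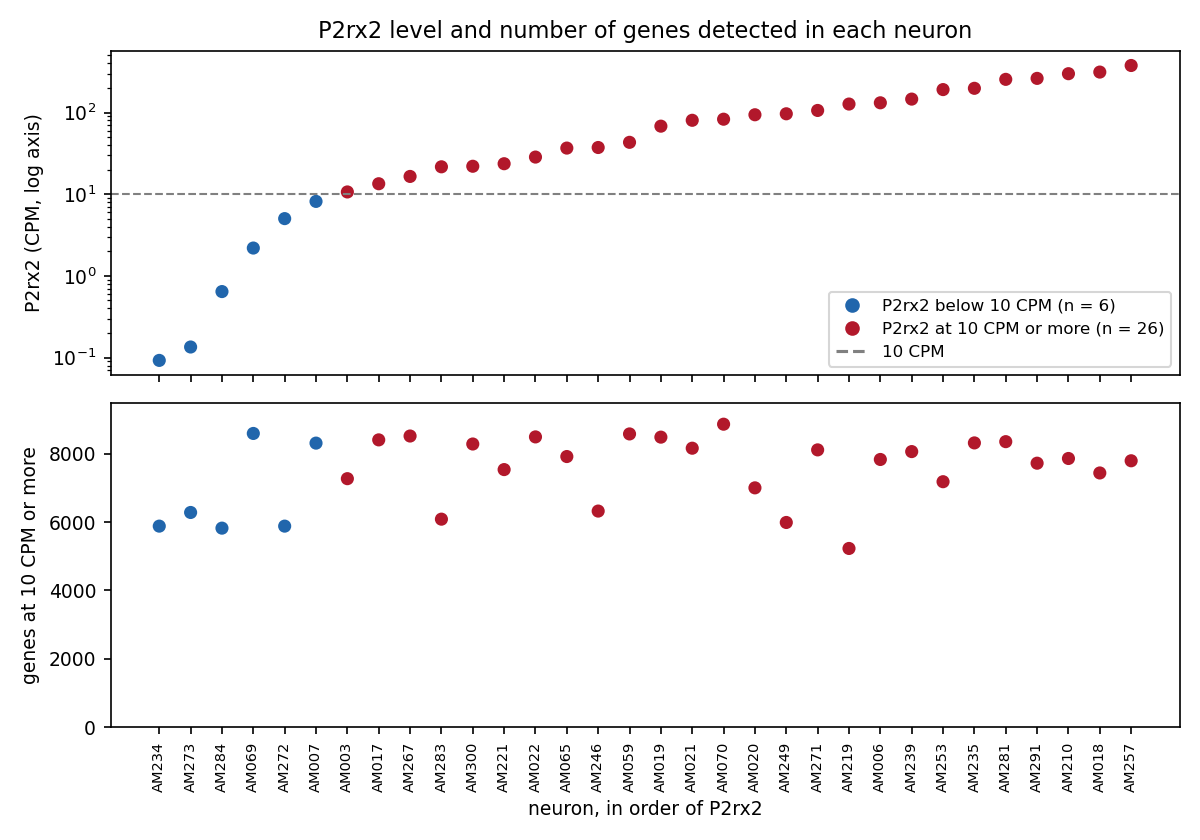
P2rx2 in CPM on a log axis (top) and the number of genes at 10 CPM or more (bottom) in each of the 32 neurons, in order of P2rx2. Points are neurons, blue for the 6 P2rx2-low neurons and red for the 26 P2rx2 neurons, and the dashed line marks 10 CPM. P2rx2 climbs from 0.0924 to 376.6 CPM without a break at the line, and 4 of the 6 blue points in the lower panel lie under 7000 genes.

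Depth was alike in the classes, but the number of genes was not. Totals ran from about 7.67e+06 to 2.07e+07 counts in P2rx2 neurons and from 1.08e+07 to 2.01e+07 in P2rx2-low neurons. P2rx2 neurons held 5231 to 8870 genes at 10 CPM or more with a median of 7894.5, against 5826 to 8599 with a median of 6085 in P2rx2-low neurons. Fewer than 7000 genes were found in 4 of 26 P2rx2 neurons and in 4 of 6 P2rx2-low neurons, so counts within these strata stand beside the main results. The identifiers of the neurons fall into 3 ranges, AM002 to AM023 (8 P2rx2 neurons and 1 P2rx2-low neuron), AM059 to AM086 (3 and 1) and AM210 to AM304 (15 and 4). The labels do not say whether these ranges are batches. One P2rx2-low neuron, AM284, stood apart from the other 5 in many of the genes described here, and its values are given beside many of them.

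Pan-neuronal genes were present in nearly all of the neurons. Of the 10 pan-neuronal genes, none differed between the classes by the size rules used here. Snap25, a vesicle fusion protein, had medians of 2180 CPM in P2rx2 neurons and 2510 CPM in P2rx2-low neurons. Slc17a6, the vesicular glutamate transporter of sensory neurons, was at 10 CPM or more in 26 of 26 and 6 of 6. Rbfox3, which encodes the neuronal splicing factor NeuN, was at 10 CPM or more in 24 of 26 and 6 of 6. The microtubule protein gene Map2 was low in 1 cell, at 3.03 CPM in AM284 against 115.0 to 254.2 CPM in the other P2rx2-low neurons. Every neuron of both classes carried Ntrk2, a neurotrophin receptor, at 10 CPM or more. Hoxb5 and the transcription factor Isl1 were each found in 25 of 26 and 6 of 6.

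Other ganglion markers were less clear. Phox2a, a nodose transcription factor, reached 10 CPM in 2 of 26 P2rx2 neurons and 0 of 6 P2rx2-low neurons, where 3 counts would set a limit of 50%. Eya2, a placode gene, was found in 2 of 26 and 1 of 6. Of the jugular list, Prrxl1 was found in 12 of 26 and 3 of 6 and Runx1 in 25 of 26 and 6 of 6, while Mrgprd was found in none and Sstr2 in 4 of 26 and 0 of 6. Both classes are therefore named by P2rx2 and Prdm12 rather than by ganglion.

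Across all genes, 10508 reached 10 CPM in at least 5 of the 32 neurons and were compared. A gene was called by share when the percentage of neurons at 10 CPM or more differed by at least 40 points, and by level when the class medians of log2(CPM + 10) differed by at least 1. By share, 484 genes (4.61%) were higher in P2rx2 neurons and 63 (0.6%) were lower. By level, 708 (6.74%) were higher and 227 (2.16%) were lower. No gene (0%) separated the classes without overlap in either direction. The median gene stood 3.85 points and 0.15 log2 units higher in P2rx2 neurons. Single P2rx2-low neurons moved the share counts by over 1.5 times: 966 genes were higher without AM069 and 955 without AM007, and the lower count was 146 without AM284, 125 without AM272, 102 without AM234 and 100 without AM273. With neurons from 3000 genes taken in, 548 were higher and 0 lower. P2rx2 and Prdm12 were left out of these counts because they chose the neurons.

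By share, the excess of higher genes over all neurons was not seen within strata of gene number. Among the neurons with 7000 genes or more (22 against 2), 535 of 10175 compared genes were higher (5.26%) and 809 lower (7.95%). Among those with fewer (4 against 4), 238 of 5060 were higher (4.70%) and 306 lower (6.05%). With 2 P2rx2-low neurons, a single neuron shifts a share by more than 40 points. The rule is thus looser there, and the counts are not comparable with those over all neurons. Whether gene number accounts for the excess was not tested. Of the 484 higher genes, 62 were past 40 points in both strata, and of the 63 lower genes, 40 were. These strata hold part of the same neurons and are no independent support.

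**Figure D2:**
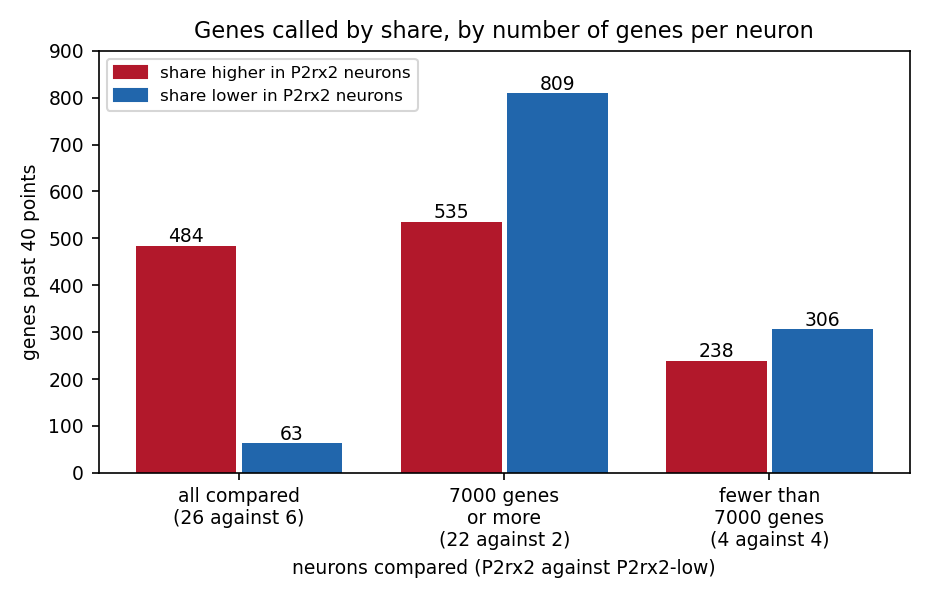
Number of genes whose share of neurons at 10 CPM or more differed by at least 40 percentage points between P2rx2 and P2rx2-low neurons, over all 32 neurons and within strata of gene number. Red bars count genes higher and blue bars genes lower in P2rx2 neurons. The counts are 484 against 63 over all neurons, and 535 against 809 and 238 against 306 within the strata. The stratum from 7000 genes holds 2 P2rx2-low neurons, where a single neuron shifts a share by more than 40 points. Its bars are therefore not comparable with those over all neurons.

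The sequence upstream of the start site was searched in the genes called by share, to see what they hold in common besides their shares. The motifs were CAGCTG, an E-box as bound by helix-loop-helix factors, and TAATTA, a homeodomain core, each its own reverse complement, so 1 search covers both strands. The window was the 250 bases before the RefSeq start (build GRCm38.p6). An entry was found for 378 of 484 higher and 45 of 63 lower genes. CAGCTG stood in 14.6% of the higher, 13.3% of the lower, 11.4% of the 8009 compared genes with an entry and 12.8% of all 27025 promoters. TAATTA stood in 3.97%, 4.44%, 2.04% and 4.90%. The percentages of the lower genes rest on 6 of 45 genes for CAGCTG and 2 of 45 for TAATTA, so a single gene shifts them clearly. For TAATTA the called genes lay above the compared genes and below all promoters, and for CAGCTG slightly above both; no test was made, and a match is a description of single genes. As examples, 3 windows with the match in capitals are shown where their genes are described below: Tac1 as a lower gene with TAATTA, and Lhfpl5 and AW551984 as higher genes with CAGCTG. Iqgap1 and Cplx2, also higher by share, hold 1 CAGCTG each and are not shown.

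The genes that were lower in P2rx2 neurons included a group known from mechanosensory and large-diameter neurons. Kcnv1, a modifier subunit of voltage-gated potassium channels (chromosome 15, 45106284 to 45114920, minus strand), had the widest drop in share among named genes. It was at 10 CPM or more in 7 of 26 P2rx2 neurons (26.9%, 11.6 to 47.8%) and in 6 of 6 P2rx2-low neurons (100%, 54.1 to 100%). In the P2rx2-low neurons Kcnv1 stood at 474.9 CPM in AM234, 213.4 in AM273, 142.3 in AM284, 12.7 in AM069, 23.6 in AM272 and 265.4 in AM007. In the P2rx2 neurons its median was 1.70 CPM and its highest value 223.9 CPM, so the classes overlapped. By identifier range Kcnv1 was found in 3 of 8, 2 of 3 and 2 of 15 P2rx2 neurons against 1 of 1, 1 of 1 and 4 of 4. By gene number it was found in 0 of 4 against 4 of 4 below 7000 genes and 7 of 22 against 2 of 2 from 7000 genes. Because all 6 P2rx2-low neurons carried it, the low side of each split was fixed, and the splits are no independent support.

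Piezo2, the stretch-gated channel by which airway afferents sense inflation, was found in 9 of 26 P2rx2 neurons (34.6%, 17.2 to 55.7%) and 5 of 6 P2rx2-low neurons (83.3%, 35.9 to 99.6%). It stood at 272.6 CPM in AM234, 317.3 in AM273, 246.8 in AM069, 190.7 in AM272 and 225.6 in AM007, and at 0.276 CPM in AM284. The low class thus held 5 high neurons and 1 near 0, while the P2rx2 neurons lay between 0 and 600.1 CPM (median 3.41). The difference of medians on the log2(CPM + 10) scale was -4.21. By identifier range Piezo2 was found in 4 of 8, 2 of 3 and 3 of 15 P2rx2 neurons against 1 of 1, 1 of 1 and 3 of 4.

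Ntrk3, the receptor for neurotrophin-3 (chromosome 7, 78175959 to 78738012, minus strand), followed the same order. It was found in 8 of 26 P2rx2 neurons (30.8%, 14.3 to 51.8%) and 5 of 6 P2rx2-low neurons. Its levels were 108.8 CPM in AM234, 18.5 in AM273, 203.4 in AM069, 252.9 in AM272 and 532.7 in AM007, against 0.0919 CPM in AM284. The median was 1.46 CPM in P2rx2 neurons and the highest value 478.2 CPM. Below 7000 genes it was found in 0 of 4 against 3 of 4, and above in 8 of 22 against 2 of 2.

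Tac1, which encodes substance P and is counted among jugular and C-fibre genes, was lower in P2rx2 neurons as well (chromosome 6, 7554879 to 7565834, plus strand). It reached 10 CPM in 15 of 26 P2rx2 neurons (57.7%, 36.9 to 76.6%) and in all 6 P2rx2-low neurons. The 6 values were 2330 CPM in AM234, 144.5 in AM273, 41.3 in AM284, 3967 in AM069, 1468 in AM272 and 295.5 in AM007. P2rx2 neurons covered a wider range, from 0 to 7773 CPM in AM003, with a median of 14.99 CPM. The difference of medians was -4.75 on the log2(CPM + 10) scale. By identifier range Tac1 was found in 7 of 8, 2 of 3 and 6 of 15 P2rx2 neurons, so most of the neurons without it lay in the range AM210 to AM304. The window before its RefSeq start holds 1 TAATTA. The span given above is that of GENCODE M21, which starts earlier, so the match lies inside that span.
Tac1 (chr6:7554811-7555060, forward strand): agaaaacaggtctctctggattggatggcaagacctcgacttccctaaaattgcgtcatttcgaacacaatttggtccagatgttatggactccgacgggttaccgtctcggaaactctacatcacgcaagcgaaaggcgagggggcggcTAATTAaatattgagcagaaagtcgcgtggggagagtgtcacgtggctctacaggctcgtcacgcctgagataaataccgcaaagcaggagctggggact

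The predicted gene Gm765 showed the widest fall in median level among the genes named here, and was chosen after its values were seen. It was found in 10 of 26 and 5 of 6 neurons, with medians of 2.74 and 1380 CPM and a log2(CPM + 10) difference of -6.75. Within the P2rx2-low class it stood at 1600 CPM in AM234, 1159 in AM273, 2337 in AM069, 83.1 in AM272 and 1733 in AM007, and at 0.276 CPM in AM284. Some single genes of the cell surface and the nerve terminal were lower as well. Of 38 genes compared in the axon guidance and adhesion list, 1 was higher by share (2.63%, against 4.61% of all genes) and 0 lower (0.6% of all genes). Gpc5, a heparan sulphate proteoglycan of the cell surface, was found in 11 of 26 and 6 of 6, with 31.04 to 168.7 CPM in the low neurons. Sv2b, a synaptic vesicle protein, was found in 10 of 26 and 5 of 6, with medians of 4.10 and 89.5 CPM, and was at 0 in AM284. Lhfpl1 was found in 7 of 26 and 5 of 6, Fign in 13 of 26 and 6 of 6, and Ppm1j, a protein phosphatase, in 9 of 26 and 5 of 6. Cdkn2aip (3 of 26 and 5 of 6) and Anln, a cytokinesis protein also seen in myelinating glia (1 of 26 and 4 of 6), were also among the named genes with the widest drops.

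**Figure D3:**
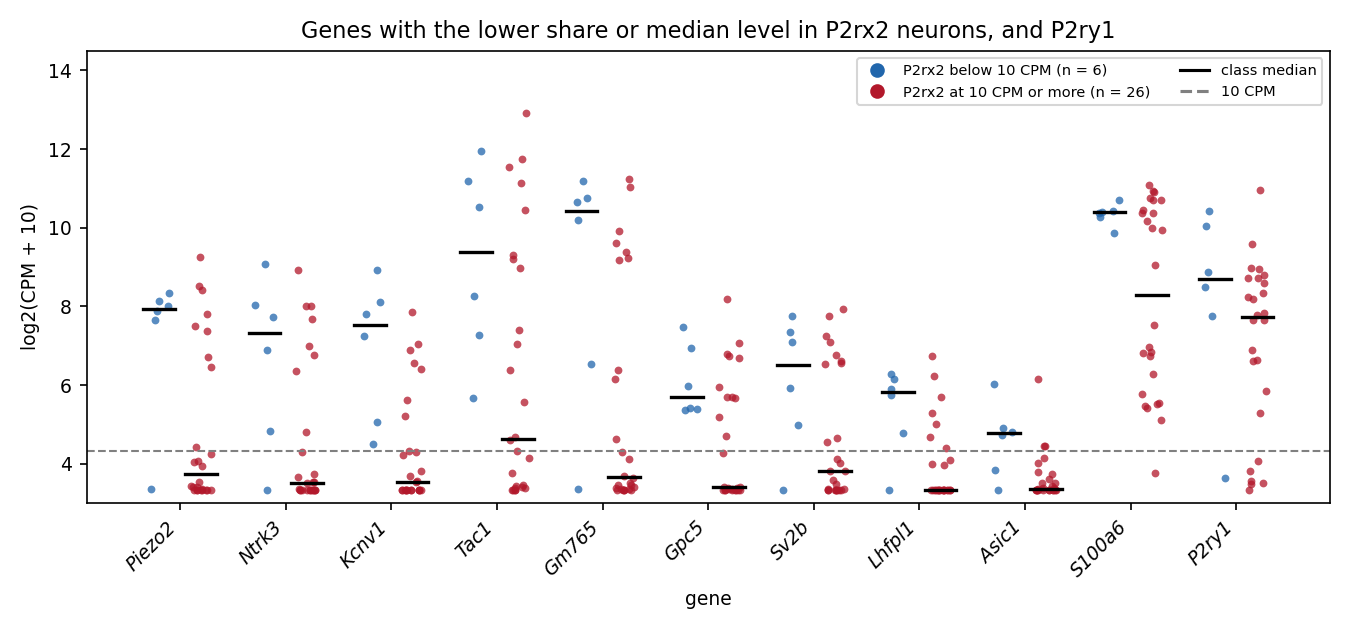
Levels of 11 genes in each neuron on the log2(CPM + 10) scale, blue for the 6 P2rx2-low neurons and red for the 26 P2rx2 neurons, with class medians as black bars and 10 CPM as a dashed line. For Piezo2, Ntrk3 and Gm765 all blue points but AM284 lie above the line, while the red points lie on both sides of it. P2ry1 is shown for comparison and overlaps broadly.

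Channels that shape firing and sense acid were also in this group. Asic1, a proton-gated channel, was found in 3 of 26 P2rx2 neurons and 4 of 6 P2rx2-low neurons, with 55.5 CPM in AM234, 4.45 in AM273, 16.7 in AM069, 20.1 in AM272, 18.3 in AM007 and 0 in AM284. The Kv1 subunits Kcna1 (10 of 26 and 4 of 6, medians 5.03 and 30.9 CPM) and Kcna2 (25 of 26 and 5 of 6, medians 69.5 and 180.8 CPM) were lower by level. So were the sodium channel Scn1a (medians 1.16 and 15.8 CPM) and the ryanodine receptor Ryr2 (medians 2.88 and 28.8 CPM). Of the 18 genes compared in the list of A-fibre and stretch receptor genes, 2 were lower by share (Piezo2 and Ntrk3; 11.1%, against 0.6% of all genes compared) and 5 by level (2.16% of all genes), and none was higher by either rule. The median of that list was 0 points and -0.32 log2 units, against 3.85 points and 0.15 for all genes compared. Nefh, the heavy neurofilament of large axons, was found in every neuron and had medians of 733.9 and 1408 CPM, under the size rule.

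Receptors and adhesion genes added to the lower set by level. Medians were 349.2 CPM in P2rx2 neurons and 1335 CPM in P2rx2-low neurons for S100a6, a calcium-binding protein, whose 6 low-class values lay close together, from 917.5 to 1653 CPM. The neurturin coreceptor Gfra2 (26.9 and 68.4 CPM), the presynaptic adhesion protein Nrxn3 (89.2 and 214.8), the guidance genes Flrt2 (20.5 and 120.1) and Plxna2 (26.8 and 111.1), and the prostaglandin receptor Ptgfr (3.80 and 28.4) were each lower by at least 1 log2 unit. Among glutamate receptors, Grik1 (6.10 and 30.5 CPM) and Grm8 (0.0629 and 20.3 CPM) were lower by level. Htr1d, an inhibitory serotonin receptor, was lower by share, in 6 of 26 against 4 of 6.

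The genes that were higher in P2rx2 neurons formed a more mixed set. Arxes1, an adipocyte-related gene of the endoplasmic reticulum, had the widest difference among named genes, in 22 of 26 P2rx2 neurons (84.6%, 65.1 to 95.6%) and 0 of 6 P2rx2-low neurons, where 3 counts would set a limit of 50%. Its levels in the low neurons were 0.0924 CPM in AM234, 0.202 in AM273, 0.0919 in AM284, 3.79 in AM069, 0 in AM272 and 6.78 in AM007. Its median in P2rx2 neurons was 21.2 CPM, so the step lay close to the detection threshold. By gene number it was found in 2 of 4 against 0 of 4 below 7000 genes and in 20 of 22 against 0 of 2 from 7000 genes. Myd88, an adaptor of Toll-like receptor signalling, and C1qtnf12, a secreted hormone-like protein, were each found in 20 of 26 and 0 of 6. All 20 of the Myd88 neurons had 7000 genes or more, and below that number it was found in 0 of 4 against 0 of 4. Abcc1, a drug efflux pump, was found in 18 of 26 and 0 of 6.

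Prmt2, an arginine methyltransferase, was found in 26 of 26 P2rx2 neurons and 2 of 6 P2rx2-low neurons, and both of the latter had 7000 genes or more. Tmcc2 and the scaffold protein Iqgap1 were each found in 24 of 26 and 1 of 6, with AM069 as the low neuron that carried them (26.9 and 58.9 CPM). Lhfpl5, a membrane protein of the hair cell transduction channel, was chosen after its values were seen. It was found in 26 of 26 P2rx2 neurons, from 10.4 to 205.5 CPM, and in 2 of 6 P2rx2-low neurons, AM234 (50.5 CPM) and AM007 (39.6 CPM). The window before its start holds 1 CAGCTG.
Lhfpl5 (chr17:28575469-28575718, forward strand): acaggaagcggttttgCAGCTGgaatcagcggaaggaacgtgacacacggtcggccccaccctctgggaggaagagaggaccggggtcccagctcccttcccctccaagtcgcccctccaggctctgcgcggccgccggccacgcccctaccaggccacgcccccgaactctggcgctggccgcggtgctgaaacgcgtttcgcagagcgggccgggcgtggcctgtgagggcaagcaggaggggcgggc

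The splicing gene Celf6 and some transcription factors were higher in P2rx2 neurons. Celf6, also chosen after its values were seen, was found in 21 of 26 P2rx2 neurons (80.8%, 60.6 to 93.4%) with a median of 121.3 CPM and a highest value of 570.5 CPM. It was below 10 CPM in 5 of 6 P2rx2-low neurons, at 0.185 to 5.03 CPM, and stood at 285.9 CPM in AM284. It was found in 4 of 4 against 1 of 4 neurons below 7000 genes and in 17 of 22 against 0 of 2 above. Nhlh2, a neuronal helix-loop-helix factor, was found in 21 of 26 and 1 of 6 (35.04 CPM in AM273), but in 0 of 3 P2rx2 neurons of the range AM059 to AM086 against 15 of 15 in AM210 to AM304. Tshz1, a zinc finger factor, was found in 16 of 26 and 0 of 6. Maf, a factor of touch receptors, was higher by level only, in 14 of 26 and 1 of 6. Of the 24 sensory transcription factors compared, 2 were higher (8.33%, against 4.61% of all genes) and 0 lower (0.6% of all genes) by share, and the list's median was 0 points and 0.33 log2 units.

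**Figure D4:**
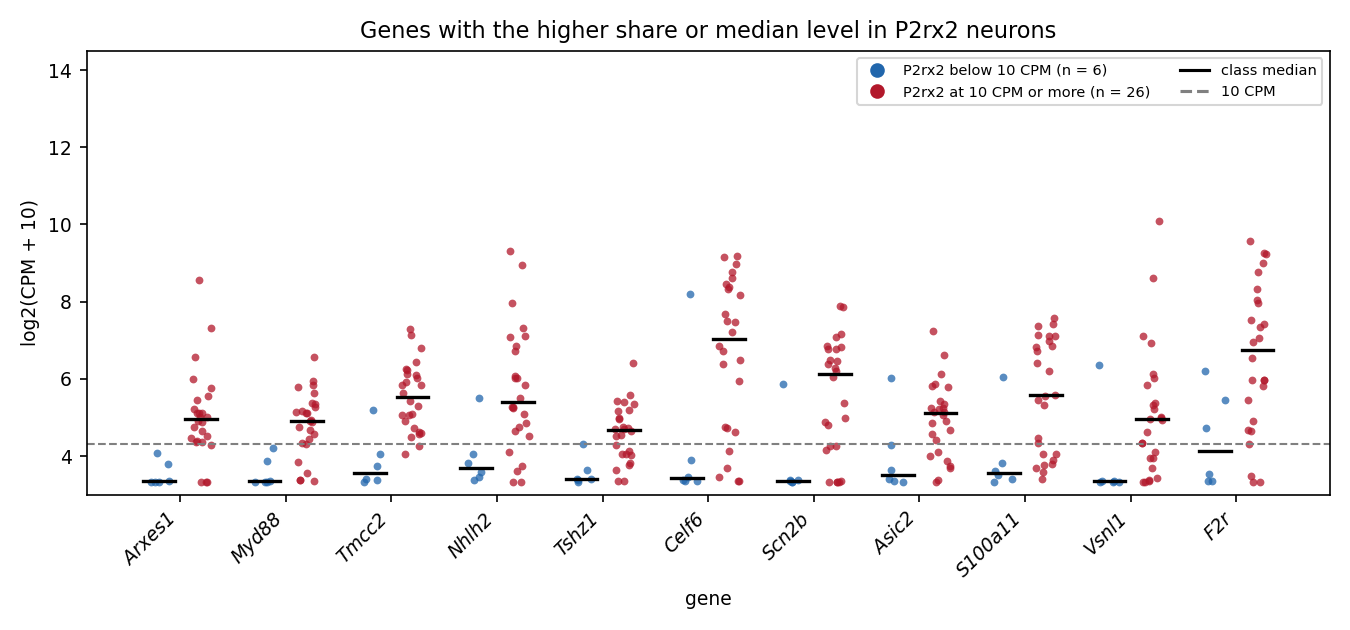
Levels of 11 genes in each neuron on the log2(CPM + 10) scale, with the colours, median bars and dashed 10 CPM line of the previous strip plot. Most P2rx2 neurons lie above the line and most P2rx2-low neurons below it, apart from F2r, where P2rx2-low neurons lie on both sides of it. The lone blue points above the line differ from gene to gene: AM284 for Celf6 and Scn2b, AM273 for Nhlh2, AM069 for Tmcc2, Asic2 and Vsnl1, and AM272 for S100a11.

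Among ion channels, Scn2b, a sodium channel beta subunit, was found in 18 of 26 P2rx2 neurons and 1 of 6 P2rx2-low neurons, with medians of 59.8 and 0.276 CPM. AM284 was again the exception at 48.2 CPM. Asic2 was found in 19 of 26 and 1 of 6 and so ran opposite to Asic1. Trpm7, a channel kinase, was found in 22 of 26 and 2 of 6, but in 19 of 22 against 2 of 2 from 7000 genes. Tmem63c, a member of the TMEM63 family of mechanically gated channels, was found in 16 of 26 and 1 of 6, yet in 0 of 4 against 1 of 4 below 7000 genes. Cacna2d2, a calcium channel subunit, was found in 12 of 26 and 0 of 6. The Kv3 subunit Kcnc2 (medians 21.02 and 0.111 CPM) and the stretch-sensitive potassium channel Kcnk2 (54.2 and 15.5 CPM) were higher by level only. Of the 14 mechanical, acid and two-pore channels compared, 2 were higher and 2 lower by share (14.3% each way, against 4.61% and 0.6% of all genes).

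Single genes for calcium-binding proteins, transmitter release and receptors of inflammatory mediators were higher. Of 16 calcium-binding genes compared, 2 were higher by share (12.5%, against 4.61% of all genes). By level 4 of them were higher and 2, S100a6 and Camk4, were lower, against 6.74% and 2.16% of all genes. S100a11 was found in 18 of 26 and 1 of 6 (56.2 CPM in AM272), and Vsnl1, a visinin-like calcium sensor, in 17 of 26 and 1 of 6 (72.2 CPM in AM069). The related sensors Hpcal1 (medians 184.8 and 21.7 CPM) and Ncald (116.6 and 15.3 CPM) were higher by level. Of 31 synaptic release genes, Cplx2 (16 of 26 and 1 of 6), Rims1 (21 and 2) and Unc13a (20 and 2) were higher by share (9.68%, against 4.61% of all genes). Sv2b was lower by share (3.23%, against 0.6% of all genes). From 7000 genes Rims1 and Unc13a turned to -22.7 and -18.2 points, and with detection at 50 CPM to -8.97 and -16.7 points. Of 15 inflammatory mediator receptors, 0 were higher by share (4.61% of all genes). By level 2 (F2r and Ptgir) were higher and 1 (Ptgfr) lower, against 6.74% and 2.16% of all genes. F2r, the thrombin receptor, had medians of 98.8 and 9.04 CPM and was found in 22 of 26 and 3 of 6. Ptgir, the prostacyclin receptor, had medians of 34.9 and 10.1 CPM. The peptide gene Cartpt had medians of 43.5 and 5.44 CPM, with AM284 at 203.4 CPM and the other low neurons at most at 11.8 CPM. The synaptic adhesion gene Lrrtm1 was found in 15 of 26 and 0 of 6.

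Of the other purinergic genes compared, P2rx3 and Entpd5 passed the share rule and Entpd5 the level rule. They were 1 of 3 P2X genes and 1 of 8 genes of ATP release and breakdown. Of all genes, 4.61% were higher by share and 6.74% by level. None of the 4 P2Y and adenosine receptor genes compared was called. In lists this small a single gene makes a large percentage. P2rx3 was found in 17 of 26 P2rx2 neurons (65.4%, 44.3 to 82.8%) and 1 of 6 P2rx2-low neurons (16.7%, 0.421 to 64.1%), but this was a step across the threshold. In the low neurons it stood at 7.30 CPM in AM234, 6.60 in AM273, 0.551 in AM284, 23.2 in AM069, 0.287 in AM272 and 4.44 in AM007, against a median of 11.8 and a highest value of 45.3 CPM in P2rx2 neurons. The median levels differed by 0.49 log2 units, under the rule, and at 1 count or more the share turned to -3.85 points. P2rx4 was found in 17 of 26 and 4 of 6, P2rx5 in 4 and 0, P2rx6 in 5 and 3, P2rx7 in 2 and 1 (36.5 CPM in AM284), and P2rx1 in none. Of the metabotropic ATP and ADP receptors, P2ry1 was carried by 20 of 26 and 5 of 6, with medians of 201.0 and 405.4 CPM and 2.48 CPM in AM284. P2ry2 was found in 15 of 26 and 2 of 6, P2ry14 in 6 and 1, and P2ry12 in 2 and 1. P2ry4, P2ry6 and P2ry13 did not reach 10 CPM in any of the 32 neurons. Adora1, the inhibitory adenosine receptor, was found in 24 of 26 and 6 of 6, Adora2a in 4 and 0, and Adora2b and Adora3 in none. Among 8 compared genes of ATP release and breakdown, Entpd5 alone was higher by share (12.5%, against 4.61% of all genes). It was found in 20 of 26 and 2 of 6, and from 7000 genes it turned to 18 of 22 against 2 of 2.

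Some of these genes share part of their annotated span with another gene, and the strand setting of the counting is not given. P2rx3 overlaps Ssrp1, P2rx6 overlaps Slc7a4, P2ry12, P2ry13 and P2ry14 overlap Med12l, and Adora1 overlaps Mybph, each on the other strand. Myd88 overlaps Acaa1a on the other strand and Slc22a14 on the same strand, Unc13a overlaps Colgalt1, and Lrrtm1 overlaps Ctnna2. Reads of the partners cannot be told apart for these genes.

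Within the P2rx2 neurons the level of P2rx2 ran from 10.7 to 376.6 CPM, and some genes varied with it. Over the 26 P2rx2 neurons, Spearman's rho with P2rx2 was 0.83 for Htr3a and 0.82 for Htr3b, which encode the A and B subunits of the serotonin-gated channel. Both had been chosen for their correlation over all 32 neurons (0.73 and 0.78), so this is a description with no p, and the points share depth and amplification. The 10 neurons with Htr3a at 10 CPM or more had P2rx2 between 93.9 and 376.6 CPM (median 226.4). The 16 without it had P2rx2 between 10.7 and 146.1 CPM (median 37.02). Htr3a stood at 1166 CPM in AM020, 643.3 in AM271, 47.5 in AM006, 1629 in AM253, 1178 in AM235, 3239 in AM281, 1454 in AM291, 2925 in AM210, 274.9 in AM018 and 4054 in AM257, listed from lower to higher P2rx2. In the P2rx2 class every neuron with P2rx2 above 146.1 CPM carried Htr3a, and none below 93.9 CPM did. Of the P2rx2-low neurons 1 carried it, AM272 at 31.1 CPM.

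Other genes of the same pattern were Cux2, a homeobox factor of neuronal identity, the genes Mmgt2, AW551984, Fmc1 and Pxmp2, and Hpcal1. Over all 32 neurons their Spearman's rho with P2rx2 ran from 0.73 for Pxmp2 to 0.79 for Cux2. Cux2 was found in 15 of 26 P2rx2 neurons and 0 of 6 P2rx2-low neurons, where its highest value was 0.276 CPM. Its carriers had P2rx2 from 23.6 CPM, with a median of 146.1 CPM. AW551984 was found in 16 of 26 and 0 of 6. At the other end stood Atp2b1, a plasma membrane calcium pump (rho -0.74), Hspa12a (-0.72), Sestd1 (-0.72) and Grb14, an adaptor of insulin signalling (-0.70). Atp2b1 was found in every neuron, with medians of 275.4 CPM in P2rx2 and 562.2 CPM in P2rx2-low neurons. Kcna1 and Nefh were lower where P2rx2 was higher inside the P2rx2 class, with rho of -0.63 and -0.59. The window before the start of AW551984, which holds 1 CAGCTG as does that of Hspa12a, reads as follows.
AW551984 (chr9:39604271-39604520, reverse strand): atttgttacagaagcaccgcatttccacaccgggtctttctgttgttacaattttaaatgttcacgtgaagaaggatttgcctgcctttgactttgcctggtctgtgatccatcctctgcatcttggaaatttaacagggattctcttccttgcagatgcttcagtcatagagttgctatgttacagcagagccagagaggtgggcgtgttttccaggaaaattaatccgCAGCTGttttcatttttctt

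**Figure D5:**
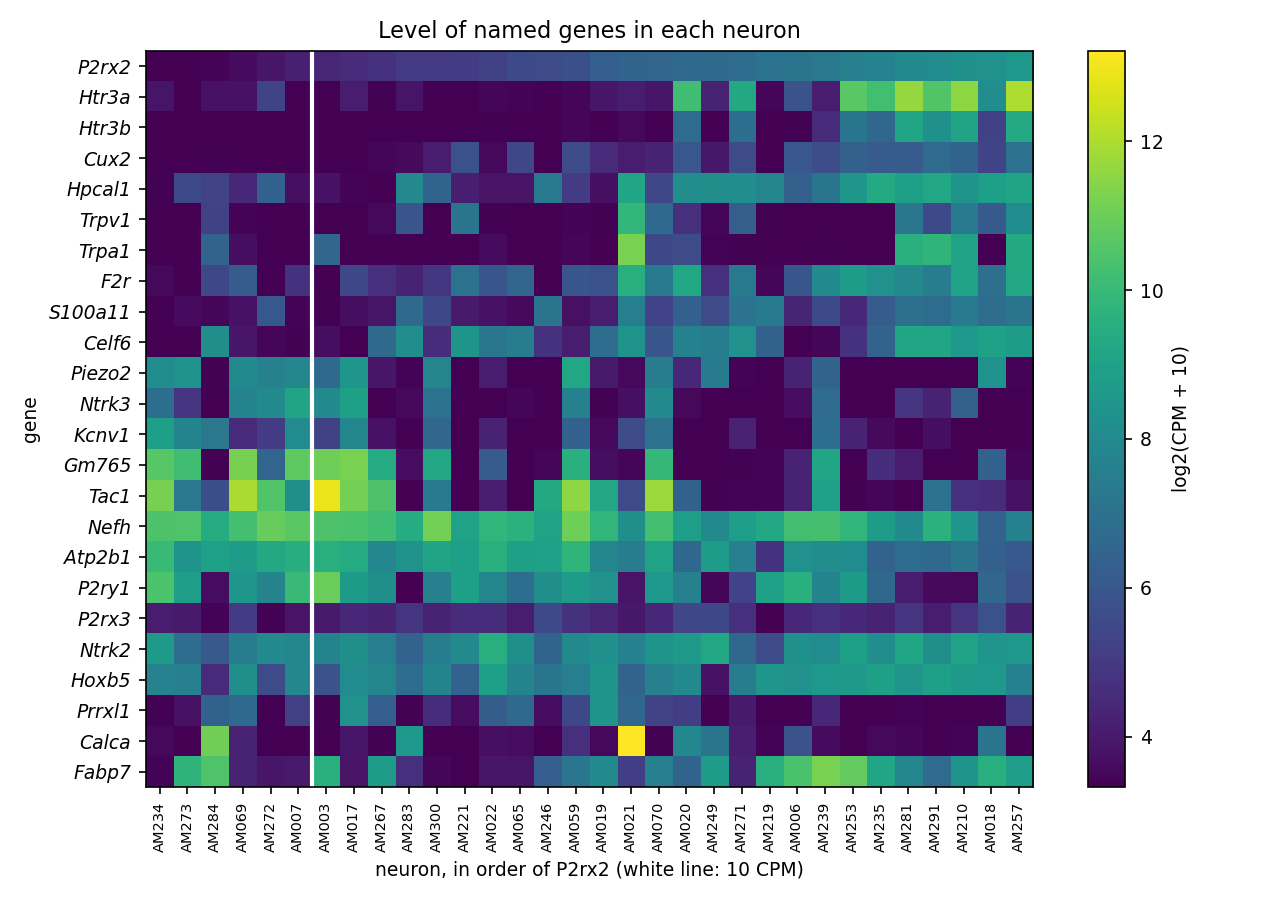
Level of 24 genes (rows, log2(CPM + 10), colour scale) in each of the 32 neurons (columns, in order of P2rx2, with the white line at 10 CPM). Htr3a and Htr3b light up at the right, in neurons with P2rx2 of 93.9 CPM or more. Piezo2, Ntrk3, Kcnv1, Gm765 and Tac1 are together at 10 CPM or more in 5 of the 6 neurons left of the line and in 6 of the 26 right of it.

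The genes that marked the P2rx2-low class were also carried by a part of the P2rx2 neurons. All 5 of Piezo2, Ntrk3, Kcnv1, Gm765 and Tac1, a set chosen after the values were seen, were at 10 CPM or more in 5 of 6 P2rx2-low neurons and in 6 of 26 P2rx2 neurons. Those 6 had P2rx2 at 10.7 CPM (AM003), 13.4 (AM017), 21.995 (AM300), 43.2 (AM059), 82.9 (AM070) and 146.1 CPM (AM239), so they included the 2 P2rx2 neurons nearest the threshold. At the other end, 7 of 26 P2rx2 neurons carried none of the 5 and 8 carried 1. Inside the P2rx2 class, Kcnv1 and Htr3a were not found together: 10 neurons had Htr3a alone, 7 had Kcnv1 alone and 9 had neither. In the P2rx2-low class they were found together in 1 of 6 neurons, AM272, the only one there with Htr3a. The pair was 1 of many counted, and no test was made. Piezo2 and Kcnv1 were found together in 6, Piezo2 alone in 3 and Kcnv1 alone in 1.

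Most genes of chemosensitive C-fibres stayed under both size rules. The capsaicin receptor Trpv1 reached 10 CPM in 11 of 26 P2rx2 neurons (42.3%, 23.4 to 63.1%) and 1 of 6 P2rx2-low neurons. Trpa1, the irritant receptor, chosen after its values were seen, was found in 8 of 26 and 1 of 6. Npy2r was found in 14 and 3, the cholecystokinin receptor Cckar in 15 and 3 (higher by level, medians 43.9 and 14.1 CPM), Calca, which encodes CGRP, in 7 and 1, and Scn10a, the sodium channel Nav1.8, in 21 and 6. Each share in the low class rests on 6 neurons, so a difference under the rule does not show that the classes are alike. The 1 low neuron with Trpv1, Trpa1 and Calca was the same cell, AM284, at 28.2, 77.6 and 2143 CPM. The other 5 had at most 0.598 CPM of Trpv1, 2.99 CPM of Trpa1 and 9.27 CPM of Calca. In the P2rx2 neurons Trpv1 and Trpa1 were found together in 7 of 26, and Trpv1 and Piezo2 in 3.

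Markers of other cells moved with the classes in part. In the list of satellite glia, 9 genes were compared. By share 1, Fabp7, was higher in P2rx2 neurons (11.1%, against 4.61% of all genes), in 20 of 26 and 2 of 6. By level 3 were higher, against 6.74% of all genes. Among these were Fabp7 and Apoe, with medians of 204.9 and 7.63, and 376.4 and 11.7 CPM. The summed level of the list lay between 185.8 and 11303 CPM (median 1667) in P2rx2 neurons and between 587.0 and 3423 CPM (median 1246) in P2rx2-low neurons. The Schwann cell gene Mbp was higher by level (medians 45.2 and 14.7 CPM), while the summed Schwann list had medians of 772.3 and 793.1 CPM. Among the low neurons the glial genes were carried by AM273 and AM284, with Fabp7 at 845.5 and 1440 CPM, and the other 4 had at most 9.42 CPM. The summed endothelial and mural list had medians of 10.8 and 0.417 CPM and highest values of 171.3 and 6.89 CPM, and its receptor gene Flt1 was found in 7 of 26 and 0 of 6. The summed fibroblast list had medians of 30.7 and 45.98 CPM, and the collagen gene Col1a2 was found in 12 of 26 and 3 of 6. The summed leukocyte and erythrocyte list had medians of 16.5 and 8.66 CPM. Epithelial genes other than Foxj1, the endothelial genes Pecam1 and Cdh5 and the leukocyte genes Ptprc, Aif1, Cd3e and Cd79a did not reach 10 CPM in any of the 32 neurons. Other members of the endothelial and blood cell lists did. Cldn5, Acta2, Pdgfrb and Csf1r were each found in 1 of 26 and 0 of 6, and Kdr, Rgs5 and Lyz2 each in 2 and 0. Hba-a1 was found in 3 and 0, Cd68 in 2 and 2, and Hba-a2 in 8 and 2. The part of these other cells in the differences between the classes was not tested.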

How the data were processed

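The authors deposited 1 table of raw read counts per gene for 50686 Ensembl mouse genes in 84 neurons. Per the submitters' processing notes, reads were counted with featureCounts (no version stated). Aligner, genome build, annotation and strand setting: not given in the sources used here. Per the labels' protocols, cellular mRNA was amplified and read in 76-base reads; the protocols mention no molecular identifiers, so amplified copies of 1 molecule are counted again and intervals cover counting error only. CPM values were computed from each neuron's total; 10 CPM is 76.7 to 207 counts. Symbols came from GENCODE M21 (GRCm38), which matched 50376 identifiers; the 310 unmatched held at most 0.253% of any neuron's counts. No 2 neurons had identical counts, and no deposited column was left unused.

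The members, the 34 gene lists and the rules were chosen with earlier results of these data known. Genes were compared if at 10 CPM or more in at least 5 of the 32 neurons. Named genes are all purinergic receptors, ganglion and pan-neuronal markers; in each other list up to 5 genes called by share and up to 3 by level; the 15 protein-coding genes with the largest share difference each way; the 8 highest and 4 lowest by Spearman's rho with P2rx2; and 8 genes fixed by name. The text gives a part of them, and some named genes are not reported here; Gm765, Celf6, Lhfpl5, Trpa1, Scn10a, Nefh and Camk4 were added after their values were seen. Of 617 listed genes, 615 were found. No p-value was computed. The steps were tested on simulated data. Alternatives covered detection, filters, cuts on P2rx2, trimmed-mean (TMM) scaling, thinning, identifier ranges and leaving out each P2rx2-low neuron. Tools were Python 3.11.15, numpy 2.4.6, pandas 2.3.3, scipy 1.17.1, matplotlib 3.10.9, R 4.3.3 and edgeR 4.0.16 (TMM factors alone, no test).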

Additional observations from a re-analysis of the deposited data

Results flagged for a closer look

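With 6 neurons in the P2rx2-low class, the highest or lowest value of a gene was set against the range of the class, and 20 of 113 genes had 1 neuron far from the other 5. The rule flags about 1 in 20 groups of normally distributed values, but levels of single neurons are often near 0 or high. A gene carried by 1 of the 6 neurons alone is readily flagged for that reason. Genes below 10 CPM in all 6 could not be flagged. The number of flags was therefore not compared with chance, and these genes are not independent of one another. AM284 held 9 of the 20 far values. It was the lowest in Piezo2 at 0.276 CPM (the others 190.7 to 317.3) and Map2 at 3.03 CPM (115.0 to 254.2). It was the highest in Calca at 2143 CPM (others at most 9.27), Celf6 at 285.9 CPM (at most 5.03), Cartpt at 203.4 CPM (at most 11.8), Trpa1 at 77.6 CPM (at most 2.99), Scn2b at 48.2 CPM (at most 0.369), P2rx7 at 36.5 CPM (at most 0.598) and Trpv1 at 28.2 CPM (at most 0.598).

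AM069 was the highest in Vsnl1 at 72.2 CPM (others at most 0.202), Iqgap1 at 58.9 CPM (at most 7.75) and Asic2 at 55.3 CPM (at most 9.50). AM272 was the highest in S100a11 at 56.2 CPM (at most 4.09), Eya2 at 43.2 CPM (the others at 0) and Htr3a at 31.1 CPM (at most 4.80), and the lowest in Kcna2 at 3.09 CPM (123.2 to 378.7). AM273 was the highest in P2ry12 at 35.6 CPM (at most 0.299), Maf at 35.5 CPM (at most 7.21) and Nhlh2 at 35.04 CPM (at most 6.52). AM234 was the highest in P2ry14 at 42.4 CPM (at most 7.94). P2rx2 was also found in neurons that the comparison left out: among 33 neurons with enough counts, fewer than 5000 genes and Prdm12 below 10 CPM, 13 (39.4%, exact interval 22.9 to 57.9%) had P2rx2 at 10 CPM or more, with a highest value of 617.4 CPM, against the 9.09% that 3 neurons would set as a limit.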

How the results depend on the processing

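Counts are given as higher and lower in P2rx2 neurons. By share (484 and 63 in the report), the higher count moved to 149 with detection at 50 CPM, 134 with P2rx2 cut at 50 CPM, 1831 with P2rx2 at 50 CPM or more against below 1 CPM, 935 without AM002 to AM023, 865 without AM059 to AM086, 238 below 7000 genes, 1203 at 30 points and 178 at 50 points. The lower count moved to 140 with P2rx2 at 50 CPM or more against below 1 CPM, 0 with neurons from 3000 genes, 809 from 7000 genes, 575 without AM210 to AM304, 140 with a Prdm12 count of 0, 306 below 7000 genes, 191 at 30 points and 16 at 50 points. Leaving out each P2rx2-low neuron gave 475 to 966 higher and 68 to 146 lower; the higher count was 955 without AM007 and 966 without AM069, and the lower count was 146 without AM284, 125 without AM272, 102 without AM234 and 100 without AM273. Thinning to the lowest total gave 492 and 64, and TMM scaling 435 and 71. At 1 count the numbers were near (508 and 80), but 17 higher and 3 lower genes were shared with the counts at 10 CPM.

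By level (708 and 227), the counts were 2230 and 699 for the 50 against 1 CPM cut, about 2.5e+02 higher for the 50 CPM cut, 3053 and 65 from 3000 genes, 215 and 525 from 7000 genes, 1390 and 374 without AM002 to AM023, 1339 and 383 without AM059 to AM086, 191 higher without AM210 to AM304, 353 lower with a Prdm12 count of 0, 799 lower below 7000 genes, and 692 to 1423 and 311 to 386 leaving out each low neuron. Among list genes (17 and 7 by share), the higher count was 6 at 50 CPM, 48 for the 50 against 1 CPM cut, 9 from 3000 genes, 26 without AM002 to AM023, 26 without AM059 to AM086, 31 without AM210 to AM304, 26 with a Prdm12 count of 0, 8 below 7000 genes and 16 to 26 leaving out each low neuron; the lower count was 3 at 1 count, 0 from 3000 genes, 35 from 7000 genes, 21 without AM210 to AM304, 15 below 7000 genes and 6 to 10 leaving out each. The difference in median genes per neuron (1809.5) was 435 at 50 CPM, 119.5 with the 50 CPM cut, 3257 from 3000 genes and 155.5 below 7000 genes, reversed to -364.5 from 7000 genes and -290.5 without AM210 to AM304, and lay at 1609.5 to 2009.5 leaving out each. The causes were not tested.

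Of 41 called genes followed over the settings, 4 stayed past 40 points at 1 count and 10 at 50 CPM. With the 50 CPM cut on P2rx2 13 did, with neurons from 3000 genes 15, and in each other setting 29 or more. The differences nearest to 0 in any setting were -3.85 points for Tac1, -7.69 for Gm765 and -15.4 for Piezo2. Other followed genes shrank further and reached 0 points in some setting, among them Ppm1j, Cdkn2aip, Myd88, C1qtnf12, Tmcc2, Celf6, Prmt2, Lrrtm1, Fabp7, Cux2 and Lhfpl5. Share differences of called genes turned sign, in points, at 1 count for P2rx3 (-3.85), Sv2b (1.28), Nhlh2 (-3.85), Scn2b (-11.5), Cacna2d2 (-15.4) and Iqgap1 (-3.85). At 50 CPM they turned for Asic2 (-5.13), Rims1 (-8.97) and Unc13a (-16.7), and with the 50 CPM cut for Rims1 (-6.25). From 7000 genes they turned for Entpd5 (-18.2), Trpm7 (-13.6), Rims1 (-22.7) and Unc13a (-18.2), without AM210 to AM304 for Entpd5 (-9.09), Rims1 (-27.3) and Unc13a (-18.2), and below 7000 genes for Tmem63c (-25). The below-7000 stratum and the leave-one-out settings were chosen after seeing the data. At least 76.7 counts stand behind each detection at 10 CPM. In the main comparison 1 P2rx2-low neuron moves a share by 16.7 points, and by more in settings with fewer such neurons. No paired analysis was possible because the labels give 1 group and no replicate number.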
